A study of Mus musculus with 2 samples.

Results

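The 10 genes described here encode fibroblast growth factors (FGFs) with known places in the hair cycle and the receptors that FGFs bind. They were chosen by name from 22180 genes measured on the array, and all 10 had a transcript cluster, the array's probe set for a locus, that the platform annotation ties to their symbol alone. The 6 ligand genes are Fgf18 (Entrez gene 14172), Fgf5 (14176), Fgf7 (14178), Fgf10 (14165), Fgf13 (14168) and Fgf22 (67112). The 4 receptor genes are Fgfr1 (14182), Fgfr2 (14183), Fgfr3 (14184) and Fgfr4 (14186). Fgf10 had 2 clusters and each of the other 9 genes had 1.

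The samples were back skin of male BALB/cAJcl mice aged 7 weeks, with 1 Affymetrix Mouse Gene 2.0 ST array for FGF18 treatment and 1 for a saline control. For the FGF18 group the design gives depilation to start hair growth, an intraperitoneal injection at 6 days of 100 µg FGF18 (with 5 µg/µl heparin, in saline), whole-body γ-irradiation with 6 Gy another 24 h later, and skin collection at 4 h after that. The control is labelled only as saline, so whether it was depilated, irradiated or given heparin, and at what times, is not stated. FGF18, heparin, radiation, and depilation and its timing therefore cannot be told apart in any difference. Neither the number of mice behind an array nor the source of the injected protein is given. With no replicates there is no test, and each difference below describes these 2 arrays.

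FGFs are secreted proteins that bind heparan sulfate and receptor tyrosine kinases at the cell surface, and the receptors signal through the adaptor FRS2 to RAS and the kinase ERK. In the hair follicle, the dermal papilla makes FGF7 and FGF10, which act on a splice form of FGFR2 in the epithelium above it. FGF5 from the outer root sheath ends the growth phase, and its loss gives the long hair of angora mice, while FGF18 is made around the resting hair and holds the follicle in the resting phase. FGF13 stands apart from the other ligand genes, since its protein stays inside the cell and binds sodium channels.

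Of the receptor genes, Fgfr2 and Fgfr1 were higher on the FGF18 array, Fgfr3 differed little, and the size of the lower reading of Fgfr4 depended on the processing. The ligand gene with the clearest difference was Fgf7. Fgfr2, Fgfr1 and Fgf7 read 1.49-fold, 1.48-fold and 1.41-fold higher, and Fgfr4 read 1.49-fold lower. Fgf18 itself, Fgf22 and Fgfr3 differed by less than 0.32 log2 units, the lower threshold used for counts here. Fgf5, Fgf10 and Fgf13 were dim. Folds are ratios of intensity + 1 between the arrays, and differences are the log2 of FGF18 over saline for the same values, a scale that understates changes of dim genes. The only measure of error in these files is the disagreement between clusters of the same gene. Its standard deviation was 0.24 log2 units over 319 symbols, from clusters at or above the median level of all genes. It leaves out dimmer clusters and does not cover variation between animals.

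Fgfr2 encodes the receptor whose epithelial splice form binds FGF7, FGF10 and FGF22. It read 172 on the FGF18 array and 115 on the saline array. Its difference was 0.57, larger than the standard deviation between clusters. Fgfr1, the main FGF receptor gene of mesenchymal cells, read 54.0 on the FGF18 array and 36.2 on the saline array, a difference of 0.56. Both receptor genes lay above the 95th percentile (0.53) of the differences of the 11090 genes at or above the median level, and they stayed above it when that percentile was computed with a pseudocount of 16 (0.40) or after subtraction of the intensity trend (0.45). The clusters sum up whole genes, so the b and c splice forms of these receptors cannot be told apart.

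Fgfr3 and Fgfr4 lay on the other side. Fgfr3, a receptor gene expressed by keratinocytes and the precursors of the hair shaft and by cartilage, read 45.9 after FGF18 and 52.2 after saline. That difference of -0.18 is smaller than the standard deviation between clusters. After subtraction of the intensity trend it was -0.28, a little larger in size than that standard deviation. Fgfr4, another receptor that binds FGF18 and is best known from liver, read 13.8 on the FGF18 array, level with that array's median of 13.8, and 21.1 on the saline array, whose median was 14.0. Its difference was -0.58, just past the 5th percentile of -0.57, but it shrank to -0.32 with a pseudocount of 16, which is inside the 5th percentile of -0.40 for that setting, and the trend-corrected value of -0.58 is inside the percentile of -0.64. Of the 4 receptor differences, that of Fgfr4 moved most between settings.

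Fgf7 encodes keratinocyte growth factor, a mesenchymal ligand of epithelial FGFR2. It read 79.9 on the FGF18 array and 56.3 on the saline array, a difference of 0.50, larger than the standard deviation between clusters and under the 95th percentile. Fgf10, a close relative of Fgf7 and a dermal papilla ligand for the same receptor, was read by a pair of clusters. The first read 12.2 after FGF18 and 7.05 after saline, and the second 22.2 after FGF18 and 11.4 after saline. Both clusters were higher on the FGF18 array, with differences of 0.72 and 0.90, but only the second reached the array median, and only on the FGF18 array. Fgf10 is thus not shown above background in saline skin and no fold is given for it.

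Fgf22 encodes another ligand that binds the epithelial splice form of FGFR2, and is known from the inner root sheath, the sleeve that moulds the hair. It read 77.9 after FGF18 and 95.3 after saline, 1.22-fold lower, on the opposite side from Fgf7 and Fgf10. The difference of -0.29 is little more than the standard deviation between clusters. It was -0.39 after subtraction of the intensity trend, which takes it past the threshold of 0.32.

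Fgf18, the gene of the injected factor, read 25.4 on the FGF18 array and 21.6 on the saline array. The difference of 0.22 is smaller than the standard deviation between clusters. Since the factor was given as protein, the transcript does not show which sample received it. Fgf5, which ends hair growth, read 10.7 after FGF18 and 7.43 after saline, and Fgf13 read 11.8 after FGF18 and 12.4 after saline. Both were below the median of each array, so neither is shown above background. Their differences were 0.47 and -0.07.

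**Figure D1:**
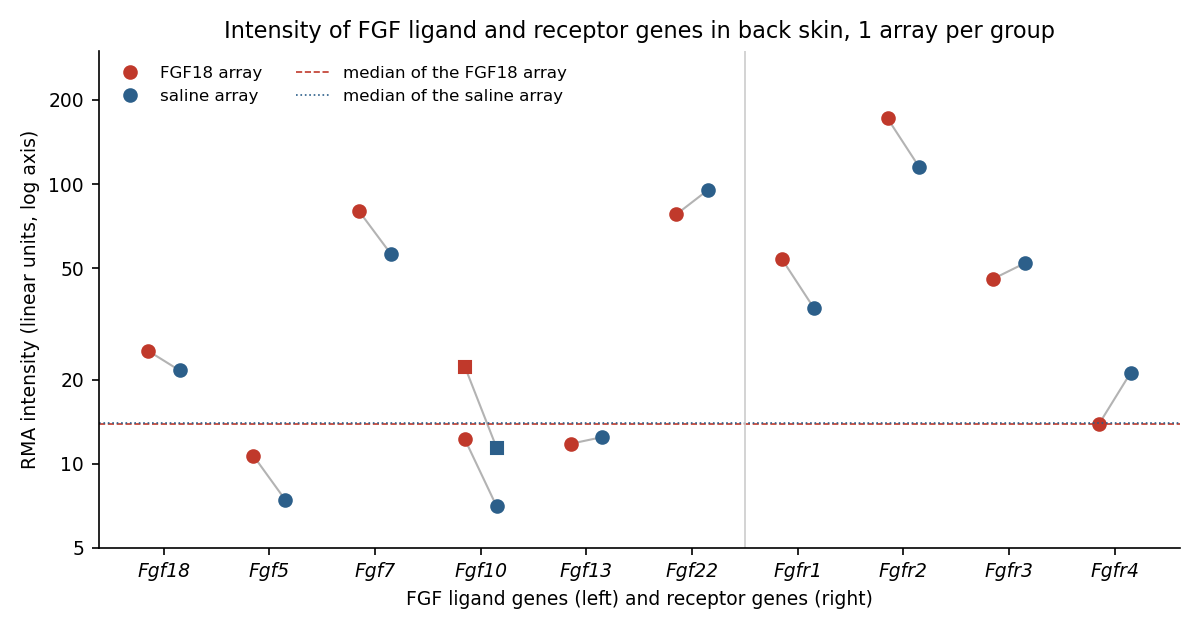
RMA intensity (linear units on a log axis) of each gene on the FGF18 array (left point of a pair) and the saline array (right point), with a line joining the values of a cluster and horizontal lines at the medians of the FGF18 array (13.8) and the saline array (14.0). Squares mark the second cluster of Fgf10. The lines slope down to saline for Fgfr1, Fgfr2 and Fgf7 and up to saline for Fgfr4, whose FGF18 value lies on the median.

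Counted together, 5 of the 10 genes were higher on the FGF18 array by 0.32 log2 units or more, beside 12.8% of all 22180 genes. In the other direction 1 of 10, Fgfr4, was lower by that much, beside 13.4% of all genes, so the count of lower members is near the background. Among the higher genes, Fgf5 and Fgf10 were dim. Of the 7 members at or above the median on both arrays, 3 were higher by this threshold and 1 was lower. The same 7 members had a mean over both arrays at or above the median level of all genes. Among the 11090 genes that pass this second rule, 17.4% were higher and 11.5% lower. With the intensity trend subtracted, these shares were 11.5% higher and 14.8% lower. Only the dim Fgf10 passed 1.5-fold higher, where the share of all genes was 2.61%, and no member passed 1.5-fold lower, where the share was 4.15%. None reached 2-fold higher or lower, beside 0.257% and 1.06% of all genes. The genes were picked with earlier results of these data known, so the counts describe them and support nothing further.

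**Figure D2:**
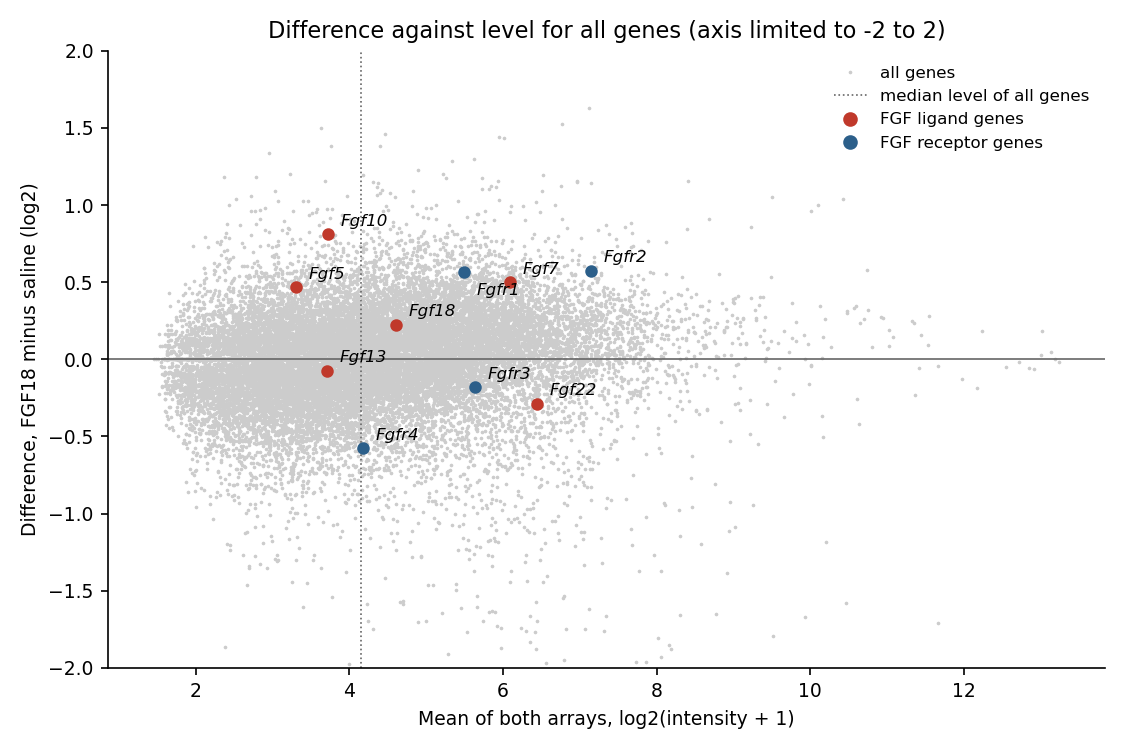
Difference (FGF18 minus saline, log2) against the mean of both arrays on the log2(intensity + 1) scale for all 22180 genes in grey, of which 34 lie beyond the axis limits. The 6 ligand genes are red and the 4 receptor genes blue, and Fgfr2 and Fgfr1 lie near the upper edge of the cloud at their level while Fgf18, Fgfr3 and Fgf13 lie well inside it.

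The median difference was 0.35 over the 6 ligand genes and 0.19 over the 4 receptor genes, against 0.00 over all genes and 0.07 over genes at or above the median level. The ligand median was 0.16 with a pseudocount of 16, and the receptor median 0.09 after subtraction of the intensity trend. The ligand median rests partly on Fgf5 and Fgf10. Over Fgf18, Fgf7 and Fgf22, the ligand genes above the median on both arrays, it was 0.22. The receptor median hides values on both sides of 0, since the 4 differences were 0.57, 0.56, -0.18 and -0.58. That of -0.18, for Fgfr3, is smaller than the standard deviation between clusters, though it was -0.28 after subtraction of the intensity trend.

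**Figure D3:**
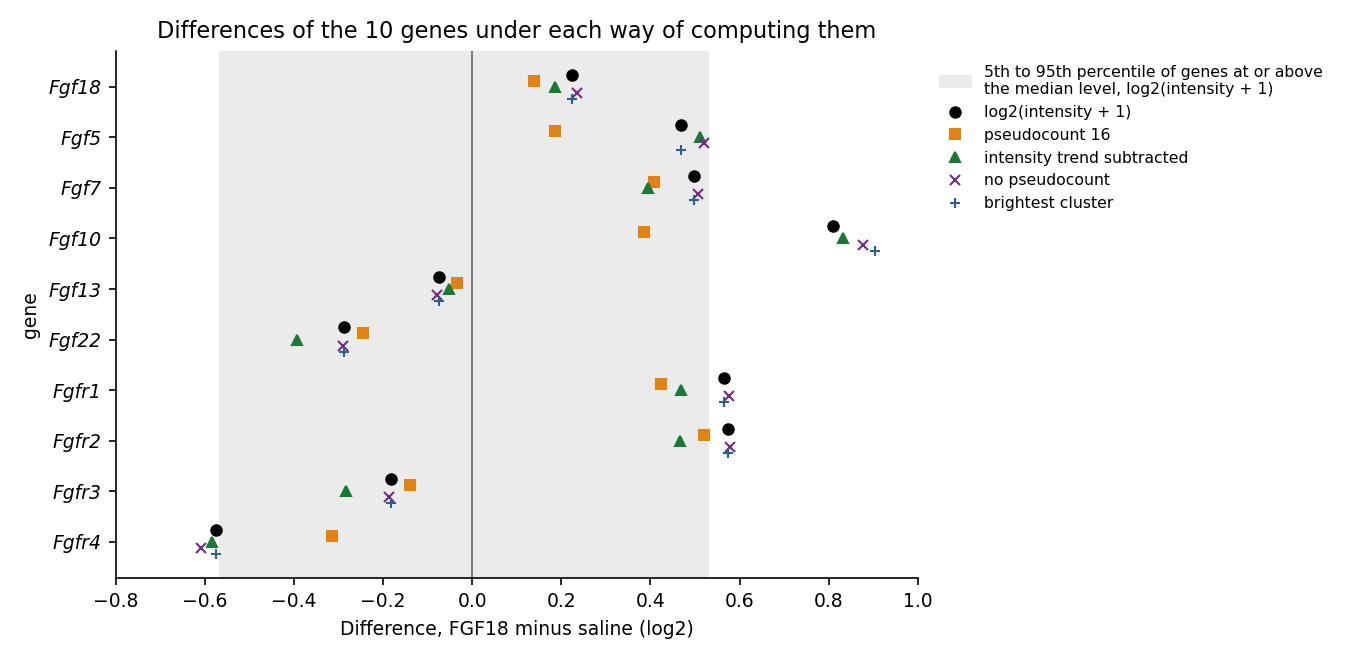
Difference (FGF18 minus saline, log2) of each gene under 5 ways of computing it, with the grey band from the 5th to the 95th percentile (-0.57 to 0.53) of the 11090 genes at or above the median level. Each gene keeps its side of 0 under all those shown, of which only trend subtraction could have moved a gene across it. The pseudocount of 16 draws the dim genes Fgf5 and Fgf10, and Fgfr4, towards 0.

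The RefSeq table of promoters (GRCm38.p6), which gives 250 bases before to 50 bases after a transcription start, held a window for 9 of the 10 genes. The windows of Fgf7 and Fgfr2, which were higher on the FGF18 array, of Fgfr4, which was lower, and of Fgf18, the gene of the injected factor, are shown to compare the make-up of these starts. They lie at chr2:126034408-126034707 on the plus strand (Fgf7), chr7:130266759-130267058 on the minus strand (Fgfr2), chr13:55152568-55152867 on the plus strand (Fgfr4) and chr11:33147351-33147650 on the minus strand (Fgf18). Capitals mark matches, on either strand, to the TATA box TATAAA, the GC box GGGCGG, the AP-1 site TGACTCA, the E-box CACGTG, the TCF/LEF site ATCAAAG or the CCAAT box.
Fgf7: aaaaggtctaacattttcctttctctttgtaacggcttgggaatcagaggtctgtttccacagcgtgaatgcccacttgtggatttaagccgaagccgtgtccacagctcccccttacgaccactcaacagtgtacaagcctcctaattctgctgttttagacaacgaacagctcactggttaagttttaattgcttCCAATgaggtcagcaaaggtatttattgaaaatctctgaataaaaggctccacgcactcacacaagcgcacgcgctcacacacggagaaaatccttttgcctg
Fgfr2: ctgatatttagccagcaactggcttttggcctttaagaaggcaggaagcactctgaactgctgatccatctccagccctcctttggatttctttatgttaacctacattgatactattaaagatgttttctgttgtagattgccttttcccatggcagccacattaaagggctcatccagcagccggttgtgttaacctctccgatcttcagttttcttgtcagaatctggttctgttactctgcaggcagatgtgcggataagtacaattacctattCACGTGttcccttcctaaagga
Fgfr4: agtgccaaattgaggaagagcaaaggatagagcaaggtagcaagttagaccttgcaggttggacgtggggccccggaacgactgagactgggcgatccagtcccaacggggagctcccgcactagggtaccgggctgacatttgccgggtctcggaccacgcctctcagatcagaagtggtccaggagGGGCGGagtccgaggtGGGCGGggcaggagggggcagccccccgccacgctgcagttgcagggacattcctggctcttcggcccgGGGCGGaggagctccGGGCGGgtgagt
Fgf18: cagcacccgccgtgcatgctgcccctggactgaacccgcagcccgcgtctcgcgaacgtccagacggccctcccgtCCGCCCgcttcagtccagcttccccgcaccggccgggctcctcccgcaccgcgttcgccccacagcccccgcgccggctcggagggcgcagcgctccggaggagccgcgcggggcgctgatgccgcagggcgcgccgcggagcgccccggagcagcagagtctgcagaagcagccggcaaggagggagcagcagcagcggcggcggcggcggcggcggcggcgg

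The Fgf7 and Fgfr2 windows held 11 and 4 CG dinucleotides, and those of Fgfr4 and Fgf18 held 20 and 47, against a median of 7 and quartiles of 3 and 20 over 32851 mouse windows. Fgfr4 had 4 GC boxes and Fgf18 had 1, and neither Fgf7 nor Fgfr2 had any. Among windows not shown, those of Fgf5 and Fgf10, which were higher on the FGF18 array, each had 1 GC box. They held 29 and 10 CG dinucleotides. The windows of Fgf22 and Fgfr3, which were lower, also had GC boxes. A GC box occurred in 35.7% of all windows. Fgf7 had a CCAAT box, found in 37.4% of windows, and Fgfr2 an E-box, found in 7.15%. None of the 4 windows shown held the TATA box (13.6% of windows), the AP-1 site (5.20%) or the TCF/LEF site (3.73%). The motifs do not overlap in letters here, and a match is a description of sequence, not a bound site.

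The other FGF genes were mostly dim. Of 10 other paracrine ligand genes, only Fgf17, a relative of Fgf18, and Fgf4 were at or above the median level of all genes, and the list's median difference was -0.04. Fgf17 read 27.7 after FGF18 and 25.3 after saline. Fgf4, which is known from the early embryo and lies in the same subfamily as Fgf5, read 17.6 after FGF18 and 23.4 after saline, 1.32-fold lower. Past the threshold of 0.32, 0 of the 10 were higher and 3 were lower, beside 12.8% and 13.4% of all genes. Those 3 were Fgf4 and, named after their values were seen, the dim genes Fgf1, at 7.85 after FGF18 and 12.2 after saline, and Fgf6, at 8.60 after FGF18 and 14.6 after saline. No member of the 3 other intracellular FGF genes or the 3 endocrine ones reached the median level, with median differences of 0.16 and 0.10. Of the intracellular ones, also named after their values were seen, Fgf11 read 16.1 after FGF18 and 9.22 after saline, and Fgf14 read 7.88 after FGF18 and 10.7 after saline.

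Among proteins that hold or present FGFs at the cell surface, Fgfbp1 differed most. It encodes a secreted carrier that frees FGFs from the matrix and read 79.4 on the FGF18 array and 153 on the saline array, 1.91-fold lower. Fgfbp3, its relative, read 47.4 after FGF18 and 44.1 after saline. The genes Flrt1 and Flrt3, which encode membrane proteins, were 1.36-fold and 1.26-fold higher. Flrt1 read 19.9 after FGF18 and 14.4 after saline, and Flrt3 read 51.7 after FGF18 and 40.7 after saline. These 2 of the 8 genes of this list were higher past the threshold and 1 was lower, beside 12.8% and 13.4% of all genes, with a median of 0.13.

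Heparan sulfate, the sugar chain that FGFs need to bind their receptors, is trimmed by 2 extracellular sulfatases, and the genes of both were higher on the FGF18 array. Sulf2 read 152 after FGF18 and 84.0 after saline, 1.80-fold higher, and Sulf1 read 37.9 after FGF18 and 22.7 after saline, 1.64-fold higher. Hs6st1, which adds the 6-O-sulfate that these sulfatases remove and was named after its value was seen, read 47.6 after FGF18 and 29.6 after saline. These were the 3 genes of 13 measured that were higher past the threshold, beside 12.8% of all genes and 17.4% of those at or above the median level. All 3 passed 1.5-fold, beside 2.61% of all genes. The single gene that was lower past the threshold, beside 13.4% of all genes, was the heparanase gene Hpse, also named after its value was seen. It was dim, at 5.66 after FGF18, below that array's median, and 14.6 after saline. The heparan sulfate enzyme genes Ext1 and Glce had differences of -0.01 and -0.04, and the list's median was 0.07. Ndst1 was not analysed here.

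Of 11 genes for the core proteins that carry heparan sulfate, 3 were higher past the threshold and 1 was lower, beside 12.8% and 13.4% of all genes, and the median was 0.00. All 11 were at or above the median level, where the shares were 17.4% and 11.5%. Agrn, which encodes the basement membrane protein agrin, read 78.7 after FGF18 and 53.8 after saline, 1.45-fold higher, and the glypican gene Gpc3 read 36.3 after FGF18 and 26.6 after saline, 1.35-fold higher. Gpc1, named after its value was seen, had a difference of 0.33. The syndecan genes Sdc4 and Sdc2 lay on the lower side. Sdc4 read 100.03 after FGF18 and 129 after saline, 1.29-fold lower, and Sdc2 had a difference of -0.27.

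Downstream of the receptors, 1 of 13 measured relay genes was higher past the threshold and 1 was lower, beside 12.8% and 13.4% of all genes, with a median of 0.20. Braf, a kinase between RAS and ERK, read 283 after FGF18 and 172 after saline, 1.64-fold higher, and Map2k1, which encodes the kinase that activates ERK, read 39.7 after FGF18 and 52.5 after saline, 1.32-fold lower. Nras and the adaptor gene Gab1 had differences of 0.26 and -0.15. Of 14 genes that ERK signalling induces or that dampen it, 4 were higher past the threshold and 0 were lower, beside the same shares of all genes, with a median of 0.12. The 4 were all among its 9 brighter genes, and of all genes of that brightness 17.4% were higher past the threshold and 11.5% lower. The ERK phosphatase gene Dusp6 was 1.42-fold higher, at 31.3 after FGF18 and 21.8 after saline, and the ETS factor gene Etv5 was 1.37-fold higher, at 25.3 after FGF18 and 18.1 after saline. The others past it, named after their values were seen, were the inhibitor genes Spred1 and Spry2, with differences of 0.43 and 0.34. Dusp5 had a difference of -0.25 and Spry1 one of 0.01.

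Splicing factors set which form of FGFR1 to FGFR3 a cell makes. The epithelial factor genes Esrp1 and Esrp2, which favour the b forms, had differences of -0.29 and -0.07, with Esrp1 at 147 after FGF18 and 180.2 after saline. Ptbp1, a factor that represses the epithelial exon of Fgfr2, read 172 after FGF18 and 128 after saline, 1.34-fold higher, and Rbfox2 had a difference of 0.12. Ptbp1 was the only 1 of these 4 genes past the threshold, beside 12.8% of all genes that were higher by as much. All 4 were at or above the median level, where that share was 17.4%.

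**Figure D4:**
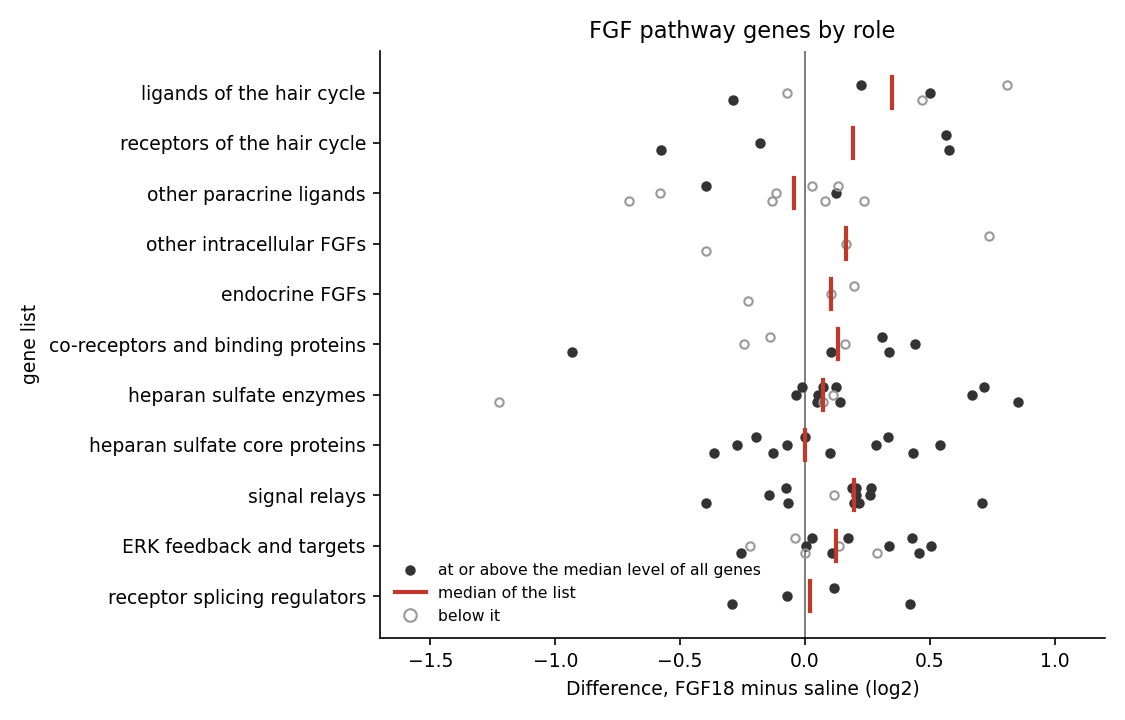
Difference (FGF18 minus saline, log2) of every measured gene of the FGF pathway by role, with filled points for genes at or above the median level of all genes, open points for dimmer genes, and a red bar at each list's median. The medians lie between -0.04 for the other paracrine ligands and 0.35 for the hair cycle ligands.

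Markers of the cells that make these ligands and receptors also differed between the arrays. Their counts stand beside all genes, of which 49.5% were higher and 45.5% lower on the FGF18 array by any amount, and beside the genes at or above the median level, of which 59.4% were higher and 38.0% lower. Both samples carried the defining transcripts of skin, with the basal keratin gene Krt14 at 328 after FGF18 and 575 after saline and the collagen gene Col1a1 at 323 after FGF18 and 408 after saline. Dermal papilla markers, which belong to the source of Fgf7 and Fgf10, were higher for 7 of 9 measured genes. Of these, 5 were higher past the threshold, beside 12.8% of all genes and 17.4% of the brighter ones, and the list's summed intensity was 770.3 after FGF18 and 555 after saline. Wif1, a Wnt inhibitor gene of the papilla, was 1.71-fold higher, while Sox2 had a difference of -0.07. The others past the threshold, named after their values were seen, were Trps1, Vcan and Corin, and Sox18, which was dim. Their differences ran from 0.35 for Corin to 0.55 for Trps1. Fibroblast markers went the other way for 5 of 7 genes, from Lum at -0.95 to Dcn at 0.42, with summed intensities of 1049 after FGF18 and 1153 after saline. In bulk skin, fewer cells of a type and less RNA per cell cannot be told apart, and the part of these markers in the differences of Fgf7, Fgf10 and Fgfr1 was not tested.

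Epithelial markers split by layer. Basal keratinocyte markers were higher for 5 of 6 genes, with Krt15 at 0.40 and Krt14 at -0.81, and their median difference was 0.25. Their summed intensity was 1398 after FGF18 and 1424 after saline, but Krt14 decides that sum, and without it the other 5 genes summed to 1071 after FGF18 and 849.6 after saline. This check was added after the values were seen. The part of these markers in the difference of Fgfr2 was not tested. Inner root sheath markers were higher for 7 of 8 genes, from Gata3 at -0.06 to Krt28 at 1.16, and summed to 6180.2 after FGF18 and 3135 after saline. Fgf22, although known from the inner root sheath, was lower on that array. Hair shaft markers were higher for 6 of 6 genes, from Krt34 at 0.10 to Krt31 at 1.22, with sums of 565 after FGF18 and 337 after saline. Markers of differentiated keratinocytes were lower for 7 of 7 genes, from Krt1 at -2.96 to Lor at -0.95, and their sums were 3692 after FGF18 and 14309 after saline. Their part in the lower readings of Fgfr4, Fgf22 and Fgfbp1 was not tested. Follicle bulge markers, from the stem cell region, were higher for 4 of 6 genes, from Nfatc1 at -0.24 to Tcf7l2 at 0.35, with sums of 213 after FGF18 and 199 after saline.

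Markers of other skin cells differed by cell type. Melanocyte markers were higher for 6 of 7 genes, from Pmel at 0.24 to Mlana at 0.81 among the brighter ones, and macrophage markers for 7 of 7, from Csf1r at 0.04 to Lyz2 at 0.57 among the brighter ones. The medians of these lists were 0.41 and 0.49. Skeletal muscle markers were lower for 6 of 8 genes, from Casq1 at -1.14 to Myh1 at 0.36. Adipocyte and endothelial markers were each higher for 3 of 6 genes, from Plin1 at -0.14 to Plin4 at 1.02 for adipocytes and, among the brighter endothelial genes, from Cdh5 at -0.66 to Pecam1 at 0.21. The summed intensity of melanocyte markers was 1001 after FGF18 and 723 after saline, and that of macrophage markers 226 after FGF18 and 170.5 after saline. Muscle markers summed to 4983 after FGF18 and 5578 after saline, adipocyte markers to 698 after FGF18 and 491 after saline, and endothelial markers to 107 after FGF18 and 118 after saline. No value in the table was 0, since the lowest intensity was 1.44 on the FGF18 array and 1.39 on the saline array.

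**Figure D5:**
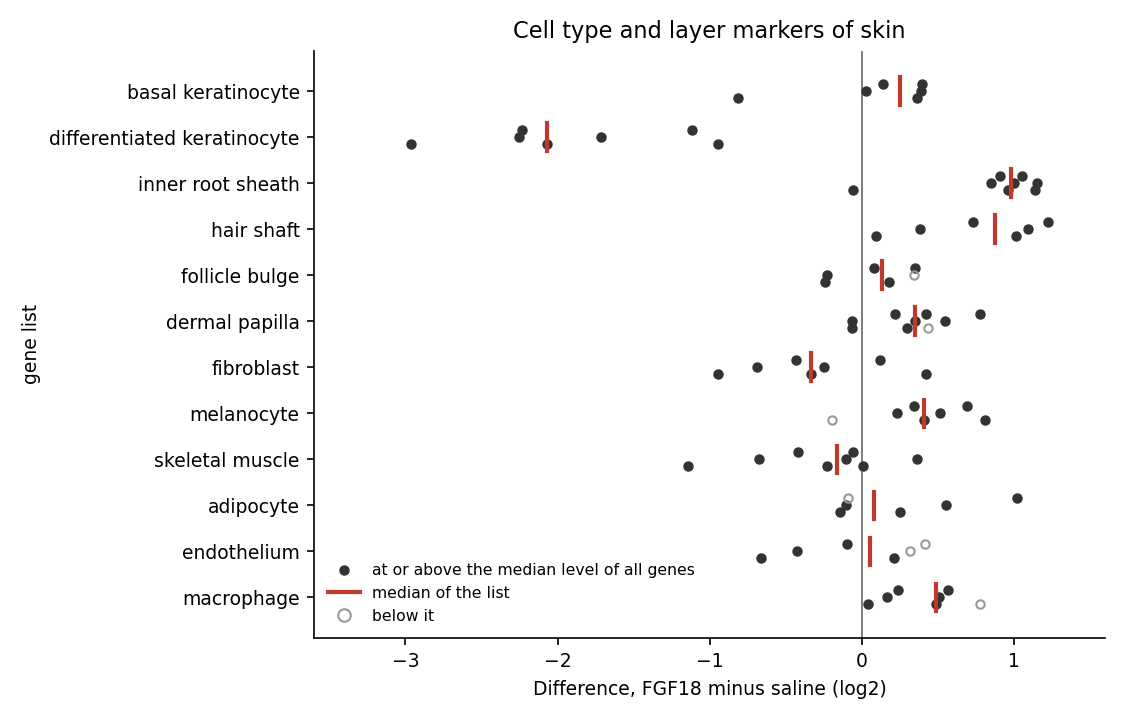
Difference (FGF18 minus saline, log2) of markers of skin cell types and layers, with points and bars as for the pathway genes. Dermal papilla, inner root sheath and hair shaft markers lie mostly above 0 and differentiated keratinocyte markers below it, with medians of 0.35, 0.98, 0.88 and -2.07.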

How the data were processed

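Total RNA of back skin was hybridised to 2 arrays, 1 for FGF18 and 1 for saline, grouped by the sample labels. The authors processed them with Affymetrix Expression Console and RMA (background correction, equalised distributions, summary of probes), per the submitters' processing notes. What they deposited are intensities, judged linear from their range, so log2(intensity + 1) was taken. Clusters with 1 symbol in the platform annotation (23521 of 41345) were averaged by symbol. Having 1 array per group limits the precision and allows no test. Genes below an array's median on either array are given without a fold, since no detection call was used here. Alternatives were a pseudocount of 16 or none, centring, subtraction of a lowess trend (span 0.3), the brightest cluster, clusters with several symbols added, level filters and other fold thresholds. Named pathway genes are the 2 highest and 2 lowest differences of each of 9 lists at or above the median level, and named markers the highest and lowest of each of 12 lists, with Krt14 and Col1a1. No gene was named for a like pattern, since 2 arrays give none. The members, lists and thresholds were chosen with earlier results of these data known, and the motifs after the promoter windows were seen. The steps were run in Python 3.11.15 with pandas 2.3.3 and statsmodels 0.14.6. The computation of differences was tested on a copy of the saline array with known differences put into 200 genes. No noise was added, so that test checks only the arithmetic.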

Additional observations from a re-analysis of the deposited data

How the results depend on the processing

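With a pseudocount of 16, which weighs down dim genes, the differences of Fgf5, Fgf10 and Fgfr4 were 0.19, 0.39 and -0.32. Each moved by more than the standard deviation between clusters, which was taken from brighter clusters only. The count of members lower by 0.32 log2 units was 0, against 1, and the count higher by it 4, against 5. The share of genes at or above the median level past that threshold was then 9.30% higher and 7.20% lower, against 17.4% and 11.5%. After trend subtraction 2 members, Fgfr4 and Fgf22, were lower past the threshold. The 5 members higher past it became 1 at 1.5-fold and 0 at 2-fold, and 3 with a filter at the median level or at the 75th percentile. The 1 lower member became 0 at 1.5-fold, at 2-fold and with the filter at the 75th percentile. The 10 member differences kept their sign under all 6 other ways of computing them, but only trend subtraction could have changed a sign. A pseudocount cannot reverse the order of the arrays within a cluster, and both Fgf10 clusters were higher on the FGF18 array. The ligand median ran from 0.16 (pseudocount of 16) to 0.37 (no pseudocount) and the receptor median from 0.09 (trend subtracted) to 0.20 (no pseudocount), against 0.35 and 0.19. Trend subtraction also turned the near-zero medians of the splicing regulators (-0.08, against 0.02) and of the other paracrine ligands (0.00079, against -0.04), and brought those of the relay and ERK feedback genes to 0.10 and 0.06, against 0.20 and 0.12. Centring and added clusters changed no member, since the median difference was 0 and no cluster with several symbols names a member. No paired analysis was possible because each group has 1 array, and for the same reason no replicate could be left out. Arrays have no read depth, and signal near the array median limits Fgf5, Fgf10, Fgf13 and Fgfr4.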
